A study of Mus musculus and Homo sapiens with 8 samples.

Results

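The genes described here are 6 transcription factors that set myeloid fate in blood formation: CEBPA, CEBPD and CEBPE of the C/EBP family, SPI1 (which encodes PU.1), GFI1 and IRF8. They were taken by symbol from RNA-seq count tables, in capitals for human cells and with the first letter only in capitals for mouse cells. All 6 were among the 17097 genes listed for mouse LSK cells, and 5 of the 6 were among the 20296 genes listed for human KU812 cells, where IRF8 was not analysed. LSK cells are the lineage-negative, Sca-1+, c-Kit+ fraction of bone marrow, where stem cells and early progenitors lie. Their donors were C57BL/6 mice, wild type (WT, n = 2) or Anp32b-KO (n = 2), and the sources used here do not give the animals' age, the deleted part of the gene or the cells in which it was deleted. KU812 is an established line of chronic myelogenous leukemia with basophil features, and its cells carried a short hairpin RNA named shNC (n = 2) or shANP32B (n = 2). ANP32B is a nuclear acidic phosphoprotein that acts as a histone chaperone, and the series sets it beside p53 in normal and leukemic stem cells.

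C/EBPα and PU.1 are the factors that open the granulocyte and monocyte program in progenitors. PU.1 binds purine-rich ETS sites and turns on receptors for myeloid growth factors, and C/EBPα binds as a leucine zipper dimer and is needed for the step to granulocyte-monocyte progenitors. IRF8 partners with PU.1 and favours monocytes and dendritic cells, GFI1 is a zinc finger repressor that favours neutrophils, and C/EBPε and C/EBPδ act later, in the granule stage of neutrophils and eosinophils and in inflammatory responses.

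The tables held 10549358 to 15683480 counts per library in LSK cells and 24416691 to 28209409 in KU812 cells. Levels are given as CPM (counts scaled to a common library size) with library sizes adjusted by TMM, a normalization that assumes most genes do not change. The gene that was targeted had lower levels in both KO and both knockdown libraries, with Anp32b at 794 and 730 CPM in WT against 201 and 248.7 CPM in KO, and ANP32B at 250 and 286 CPM in shNC against 40.4 and 38.2 CPM in shANP32B. Whether replicates were separate animals or cultures is not labelled, and the p-values therefore rest on a spread that may be technical. Markers of the LSK gate were present, with Kit at 335 to 399 CPM and Ly6a (Sca-1) at 37.8 to 60.2 CPM. KU812 cells held the basophil and mast cell genes HDC (1092 to 1256 CPM) and FCER1A (594 to 788 CPM). In immediate early genes WT library 1 was unlike the other 3, with Egr1 at 670.5 CPM against 1946 to 2716 CPM and Jun at 2549 CPM against 5150 to 6093 CPM. The values of the factors without it are given beside them. In these bulk samples, fewer cells of a type and less RNA per cell cannot be told apart.

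In KU812 cells CEBPA fell sharply when ANP32B was knocked down, and of the 4 factors tested it alone passed the threshold, an adjusted p under 0.05 in edgeR's quasi-likelihood test. SPI1, GFI1 and CEBPD did not pass, and CEBPE was too low to test. CEBPA, the factor that commits progenitors to the granulocyte line, was read at 18.4 and 16.5 CPM with shNC and at 5.36 and 4.36 CPM with shANP32B. Both knockdown libraries lay far below both controls, and the levels did not overlap. The group means were 17.5 ± 1.32 and 4.86 ± 0.712 CPM (SD, n = 2 each), so the level was 3.59-fold lower. On the log2 scale CEBPA fell by 1.84 with an SE of 0.22 (adjusted p = 1.31e-04, edgeR).

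CEBPD, an acute-phase member of the family, was low in this line. It stood at 3.79 and 4.27 CPM in shNC and at 2.05 and 2.70 CPM in shANP32B. The groups did not overlap, but the log2 fold change of -0.76 (SE 0.34) did not pass the threshold (adjusted p = 0.151, edgeR). CEBPE, which drives the late granule genes, was close to undetected, with 5 and 17 counts under shNC and 0 and 5 under shANP32B. It was too low to be tested. The summed counts, 22 against 5, gave a level 4.25-fold higher in shNC with a 95% exact counting interval from 1.57 to 14.4, and 17 of the 22 counts came from the second shNC library. That interval covers counting error only, and the first shNC and second shANP32B libraries had the same count.

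SPI1, the gene of PU.1, had levels of 69.9 and 74.5 CPM in shNC and 66.4 and 63.5 CPM in shANP32B in KU812 cells. The groups lay close together without overlap, and the log2 fold change of -0.15 did not pass (95% confidence interval -0.41 to 0.11, adjusted p = 0.429, edgeR). GFI1 was read at 30.3 and 28.6 CPM in shNC and at 34.2 and 40.8 CPM in shANP32B. Its value was higher in both knockdown libraries, with a log2 fold change of 0.35 (interval 0.035 to 0.66, unadjusted) that did not pass after adjustment (adjusted p = 0.123, edgeR). Of the 4 factors tested in KU812 cells, 1 was past the threshold, where 16.6% of all 16529 genes tested were (7.53% higher, 9.06% lower). The libraries of the groups did not overlap for all 4, where 58.5% of all genes tested did not.

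**Figure D1:**
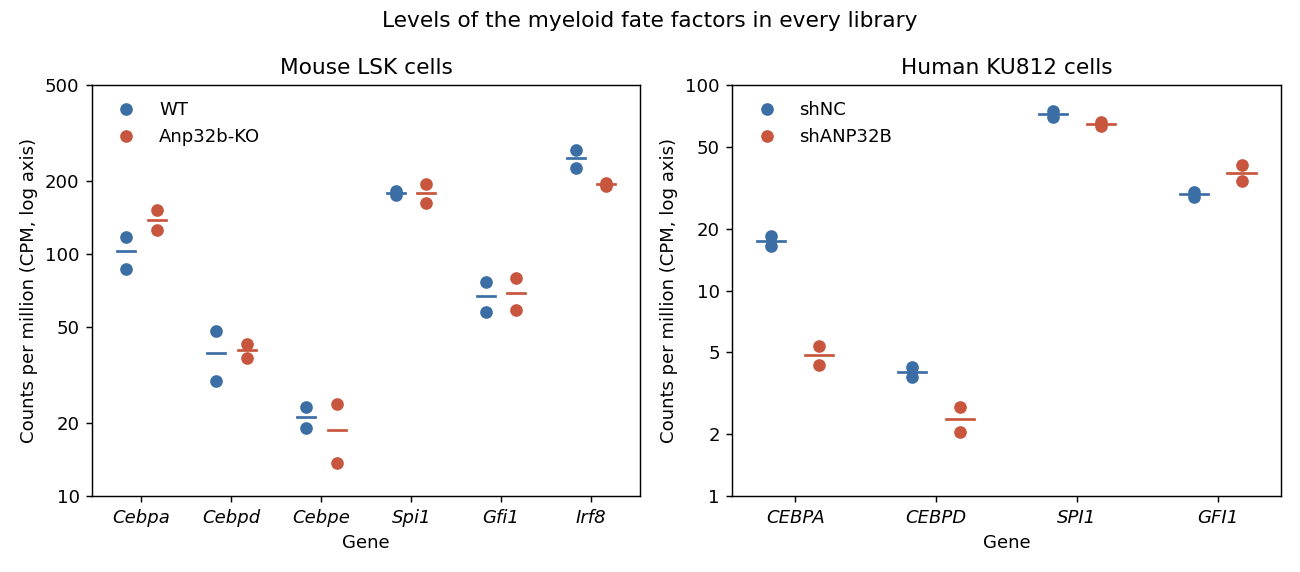
Level (CPM) of each factor in every library, on log axes, for LSK (left) and KU812 (right); each point is 1 library and the short line is the mean of the 2 libraries of a group. CEBPA drops from about the level of 16.5 to 18.4 CPM to 4.36 to 5.36 CPM in KU812 cells, whereas Cebpa in LSK cells is at 86.9 and 118 CPM in WT and 126 and 152 CPM in KO; CEBPE, near 0 in KU812 cells, and IRF8 are not drawn there.

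In LSK cells 0 of the 6 factors passed the threshold, as for all 14598 genes tested (0%, edgeR, with 657 genes or 4.5% at an unadjusted p under 0.05), so the mouse values are given as values. Anp32b itself, 3.39-fold lower in KO, had the smallest p of all genes and did not pass (adjusted p = 0.148, edgeR). Cebpa had higher and Irf8 lower values in both KO libraries, and the groups overlapped for the other 4 factors. DESeq2 and limma-voom, which called 15 and 2 genes, called 0 of the 6 factors.

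Cebpa (ENSMUSG00000034957.10, a gene of 1 exon, chromosome 7 from 35119293 to 35121928, plus strand, GRCm38) was read at 86.9 and 118 CPM in WT and at 126 and 152 CPM in KO. Both KO libraries lay above both WT libraries, with a small gap of 118 to 126 CPM between the groups. Their log2 fold change came to 0.44, SE 0.19 (adjusted p = 0.986, edgeR). It was 0.23 without the first WT library and 0.67 without the second, and in that last case it passed (adjusted p = 0.0183), with 1 WT library left and assumed to vary like the KO pair.

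The start of mouse Cebpa is shown because human CEBPA fell in KU812 cells and its change differed between the experiments. Mouse Cebpa itself did not pass, and no human promoter was searched. RefSeq promoters (GRCm38.p6) were matched for 3 of the 6 factors, and the 250 bases before the first start of Cebpa, chr7:35119043-35119292, are printed 5′ to 3′ on the plus strand, with capitals on the match to a searched motif.
Cebpa: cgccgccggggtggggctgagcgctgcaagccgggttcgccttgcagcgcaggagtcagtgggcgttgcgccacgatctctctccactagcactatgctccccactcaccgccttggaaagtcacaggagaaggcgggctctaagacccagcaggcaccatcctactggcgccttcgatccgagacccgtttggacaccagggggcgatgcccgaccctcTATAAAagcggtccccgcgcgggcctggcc
The motifs searched on both strands were TTGCNNAA (bound by C/EBP), GAGGAA (bound by PU.1), AAATCA (bound by GFI1), TATAAA (the TATA box) and a joint ETS and IRF site. This window held TATAAA once, on the gene's strand and 30 bases before the start, a match found in 12.4% of all 32851 promoter windows of that length. The other motifs had no match in these letters. Over all windows the C/EBP letters were found in 9.56%, those of PU.1 in 23.3%, those of GFI1 in 12.4% and the joint site in 2.30%. A match is a description of the letters and shows no binding. The letters had to match exactly, so the lack of a match does not show that a site is absent.

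Irf8 (ENSMUSG00000041515.10, plus strand, chromosome 8 from 120736358 to 120756694) was read at 270 and 227 CPM in WT and at 192 and 197 CPM in KO. Both KO libraries lay below both WT libraries, at -0.36 on the log2 scale, SE 0.15 (adjusted p = 0.986, edgeR). That value was -0.23 without the first WT library and -0.48 without the second, when it passed as well (adjusted p = 0.0294). These were 2 of the 6 factors whose groups did not overlap, where 33.2% of all genes tested did not.

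Spi1 (ENSMUSG00000002111.8, chromosome 2 from 91082390 to 91115756, plus strand) was read at 183 and 175 CPM in WT and 163 and 194 CPM in KO. The KO libraries lay on both sides of the WT pair, and the log2 fold change was -0.0022 (95% confidence interval -0.35 to 0.35), or 0.026 without the first WT library. Gfi1 (ENSMUSG00000029275.18, chromosome 5 from 107716657 to 107726036, minus strand) stood at 57.4 and 76.7 CPM in WT and at 58.7 and 80.0 CPM in KO, a log2 fold change of 0.052 (SE 0.20). The libraries of each group were as far apart as those of different groups. Its value turned to -0.15 without the first WT library.

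Cebpd (ENSMUSG00000071637.5, chromosome 16 from 15887286 to 15891031, plus strand) was read at 29.9 and 48.0 CPM in WT and at 37.4 and 42.6 CPM in KO. The KO libraries fell between the WT libraries, with a log2 fold change of 0.046 (SE 0.23) that turned to -0.26 without the first WT library. The gene Spidr overlaps Cebpd on the opposite strand. No source used here gives the strand setting of the counting, so reads of Spidr and Cebpd cannot be told apart where they overlap. Gm45091 overlaps Cebpa and A430072P03Rik overlaps Gfi1 on the opposite strand, and Gm20388 overlaps Irf8 on the same strand. These other overlapping genes were not listed, and reads in those overlaps cannot be told apart either. Cebpe (ENSMUSG00000052435.7, chromosome 14 from 54710360 to 54712174, minus strand) was read at 19.1 and 23.4 CPM in WT and 13.7 and 23.97 CPM in KO. The KO libraries spanned a wider range than the WT pair and held both the lowest and the highest value. The log2 fold change was -0.17 (SE 0.28), and it was -0.31 without the first WT library and 0.17 without the first KO library.

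Per kilobase of exon, the order of the factors in WT LSK cells was Spi1, Cebpa, Irf8, Gfi1, Cebpe and Cebpd. Lengths were those of the merged exons of all annotated transcripts (7055 bases for Irf8, 2695 for Spi1). The order depends on that choice of length. Spi1 had a mean level of 66.5 CPM per kilobase, Cebpa 38.9, Irf8 35.3, Gfi1 21.0, Cebpe 17.1 and Cebpd 10.4 (n = 2 libraries each). In WT the libraries of Cebpa (33.0 and 44.9) and Irf8 (38.3 and 32.2) overlapped, as did those of Gfi1 (18.0 and 24.1) and Cebpe (15.4 and 18.8), while the other neighbours in the order were apart. In KO the order was the same, and Cebpa, at 47.9 and 57.5 CPM per kilobase, was clear of Irf8, at 27.2 and 27.9. There the libraries of Gfi1 (18.4 and 25.1) overlapped those of Cebpe (11.1 and 19.3), which in turn overlapped Cebpd (9.99 and 11.4). No exon lengths of the human build were used, so levels are not ranked between genes in KU812 cells.

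The change of CEBPA differed between the experiments. In 1 model over all 8 libraries and 10771 shared symbols, the KU812 change minus the LSK change of CEBPA was -2.26 on the log2 scale with an SE of 0.26 (95% confidence interval -2.83 to -1.70, adjusted p = 0.00208, edgeR). That this gene leaned in opposite directions was known when it was chosen. It was 1 of the 5 shared factors, and the only one past the threshold, where 2.22% of all symbols tested were (0.891% higher and 1.33% lower in KU812 than in LSK cells). For CEBPD the difference was -0.79 (SE 0.36, adjusted p = 0.282, edgeR), for GFI1 0.32 (SE 0.27, adjusted p = 0.576, edgeR) and for SPI1 -0.13 (SE 0.17, adjusted p = 0.731, edgeR), none past the threshold. CEBPE, near its floor in KU812 cells, did not pass either (adjusted p = 0.403, edgeR). The experiments differ in species, cell type and the way ANP32B was lowered, which cannot be told apart. The CEBPA difference passed the threshold under each of the 14 alternatives run, with values from -2.50 to -2.05 and adjusted p from 6.79e-12 to 0.0254.

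**Figure D2:**
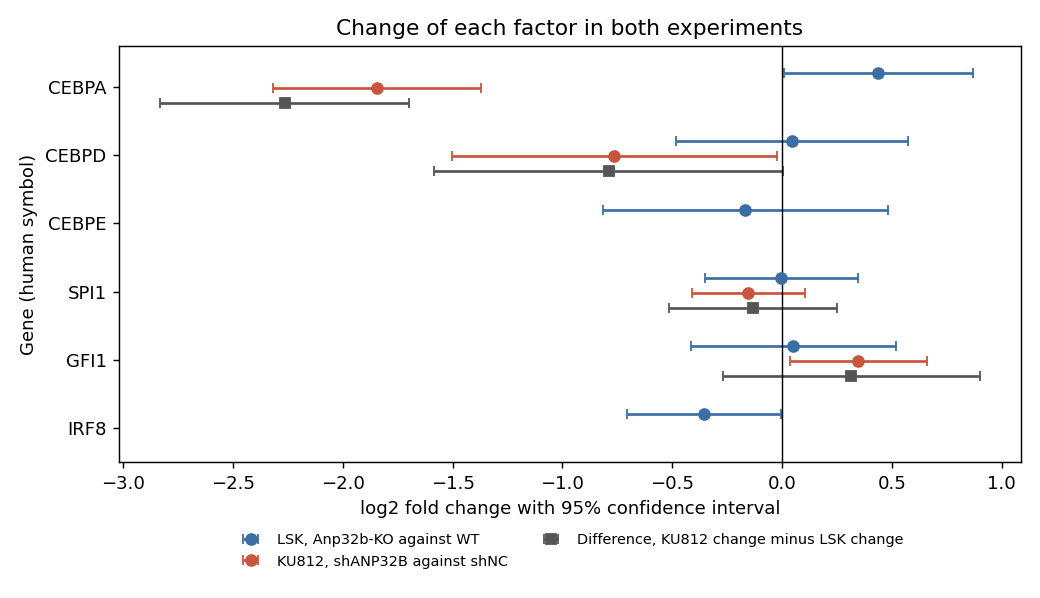
Log2 fold change of each factor with its 95% confidence interval (unadjusted) in LSK cells (blue), in KU812 cells (red) and as the KU812 change minus the LSK change (grey squares); CEBPE was not tested and IRF8 not analysed in KU812 cells. For CEBPA the KU812 point at -1.84 and the difference at -2.26 lie clear of 0, and the LSK point at 0.44 lies on the other side of 0.

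Among the other genes of the C/EBP family, CEBPB fell as well in KU812 cells. C/EBPβ, which drives emergency granulocyte production and macrophage genes, was read at 12.4 and 10.6 CPM in shNC and at 6.25 and 7.10 CPM in shANP32B. The groups did not overlap, and the log2 fold change was -0.78, SE 0.23 (adjusted p = 0.0309, edgeR). The call was lost without the first shNC library (adjusted p = 0.0588), the first shANP32B library (0.205) or the second (0.0878). The stress factor DDIT3 (-0.087), the broadly expressed partner CEBPG (-0.20) and CEBPZ (-0.33) did not pass. So 1 of the 4 genes fell and 0 rose, where 16.6% of all genes tested passed (7.53% higher, 9.06% lower). The list's median was -0.26 against 0.0041 over all genes tested. In LSK cells Cebpb stood at 38.2 and 54.0 CPM in WT and at 59.1 and 69.4 CPM in KO, a log2 fold change of 0.48 that did not pass (adjusted p = 0.986, edgeR). It was 0.25 without the first WT library. It passed without the second WT library, at 0.75 (adjusted p = 0.0205). The difference between the experiments for CEBPB was -1.25 with an SE of 0.28 (adjusted p = 0.0461, edgeR), a call that was lost in 7 of the 14 alternatives, among them that without the first WT library (adjusted p = 0.0569). Ddit3 had a log2 fold change of -1.02 in LSK cells that rested largely on WT library 1, which read 87.0 CPM where the second read 35.2 CPM, with 33.3 and 27.5 CPM in KO. Without it the value was -0.22.

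Most partners and antagonists of the factors did not pass. Of 24 such genes tested in KU812 cells 3 rose, 1 fell and 20 did not pass, and the list's median was 0.016. Over all genes tested 16.6% passed, a share close to that of this list. TRIB2, a pseudokinase that promotes the degradation of C/EBPα protein, rose from 94.99 and 96.2 CPM to 157 and 162 CPM (log2 fold change 0.74, adjusted p = 6.10e-04, edgeR). JUN, a subunit of AP-1 and a coactivator of PU.1, was read at 13.7 and 8.67 CPM in shNC and at 21.0 and 18.0 CPM in shANP32B (0.80, adjusted p = 0.0252, edgeR). IRF1, an interferon response factor related to IRF8, rose by 0.42 (adjusted p = 0.0459, edgeR), and HDAC1, a deacetylase recruited by GFI1, fell by 0.44 on the log2 scale (adjusted p = 0.0143, edgeR). Leaving out 1 library ended the call of JUN without the second shNC library (adjusted p = 0.0642) or the first shANP32B library (0.125), of HDAC1 without the first (0.0963) or second (0.132) shANP32B library, and of IRF1 without the second shNC library (0.0829) or the first (0.289) or second (0.234) shANP32B library. IRF1 also did not pass with no filter on low counts (adjusted p = 0.0566, edgeR). RUNX1, a partner of PU.1 in progenitors, had a log2 fold change of 0.0084, and the PU.1 antagonists GATA1 and GATA2 0.016 and 0.015, none past the threshold. In LSK cells 0 of 28 passed. The smallest p belonged to Zeb2, a repressor needed for dendritic cell and monocyte fate (224 and 208 CPM in WT, 166 and 147 CPM in KO, log2 fold change -0.47), Id2, an inhibitor of helix-loop-helix factors (-0.64), Gata1 (0.52) and Spib, a relative of PU.1 (-1.24, at 3.54 CPM or less). Without the first WT library Id2 stood at -0.37 and Spib at -0.43.

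Receptors and early myeloid genes that PU.1 and C/EBPα are known to turn on did not pass in either experiment. In KU812 cells 0 of 15 tested passed, where 16.6% of all genes tested did, and the list's median was 0.077. The receptor for M-CSF, CSF1R, stood at 3.04 and 1.67 CPM in shNC and 4.67 and 4.28 CPM in shANP32B (0.92, adjusted p = 0.103, edgeR). CSF3R, the G-CSF receptor and a target of C/EBPα, stood at 1.82 and 1.71 CPM in shNC and 0.772 and 0.968 CPM in shANP32B (-1.02, adjusted p = 0.180, edgeR). The values for CYBB, a subunit of the phagocyte oxidase, and CD33, a myeloid surface lectin, were -0.60 and 0.23. In LSK cells 0 of 17 tested passed, with a median of -0.11 against -0.0079 over all genes. Among those with the smallest p were Cybb (-0.47), Csf1r (73.4 and 62.1 CPM in WT, 56.3 and 50.6 CPM in KO, -0.34, or -0.22 without the first WT library) and Itgam, the integrin CD11b (0.24).

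Neutrophil granule genes are targets of C/EBPα and C/EBPε. In KU812 cells only MS4A3 of the primary granule list could be tested, and MPO, ELANE, PRTN3 and BPI were not analysed there. MS4A3, a membrane protein of granulocyte-monocyte progenitors and basophils, fell from 88.6 and 79.8 CPM to 17.2 and 15.8 CPM, a log2 fold change of -2.35, SE 0.14 (adjusted p = 5.31e-07, edgeR). AZU1 and CTSG, proteases of those granules, were too low to be tested at 1.54 CPM or less. Of the later granule genes 3 could be tested, and MMP9, the gelatinase, rose from 0.966 and 0.366 CPM to 2.82 and 2.14 CPM (adjusted p = 0.0284, edgeR), while LCN2 (0.83) and LTF (0.053) did not pass. The MMP9 call was lost without the second shNC library (adjusted p = 0.0588) or the first shANP32B library (0.143). In LSK cells all 5 tested genes of the primary granule list, which includes the membrane protein gene Ms4a3, had lower values in KO. Of them 0 passed, and the median was -0.25. Myeloperoxidase, Mpo, stood at 6037 and 4492 CPM in WT and 3102 and 4129 CPM in KO (-0.54), Ms4a3 at -0.38, the protease Ctsg at -0.25 and neutrophil elastase, Elane, at -0.16. Without the first WT library Mpo stood at -0.32, Ms4a3 at 0.058 and Elane at 0.024. The 8 later granule genes also all had lower values, with a median of -0.55, and 0 passed. The smallest p belonged to Lcn2 (-0.70), Ngp (-0.69), Mmp8 (-0.91) and Camp (-0.41). Markers of mature neutrophils, a list that shares Ltf, Camp and Ngp with these genes, moved the same way, with a summed level of 1118 and 1090 CPM over its 8 genes in WT and 779 and 690 CPM in KO and none of them at 0. Their part in the granule values was not tested.

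**Figure D3:**
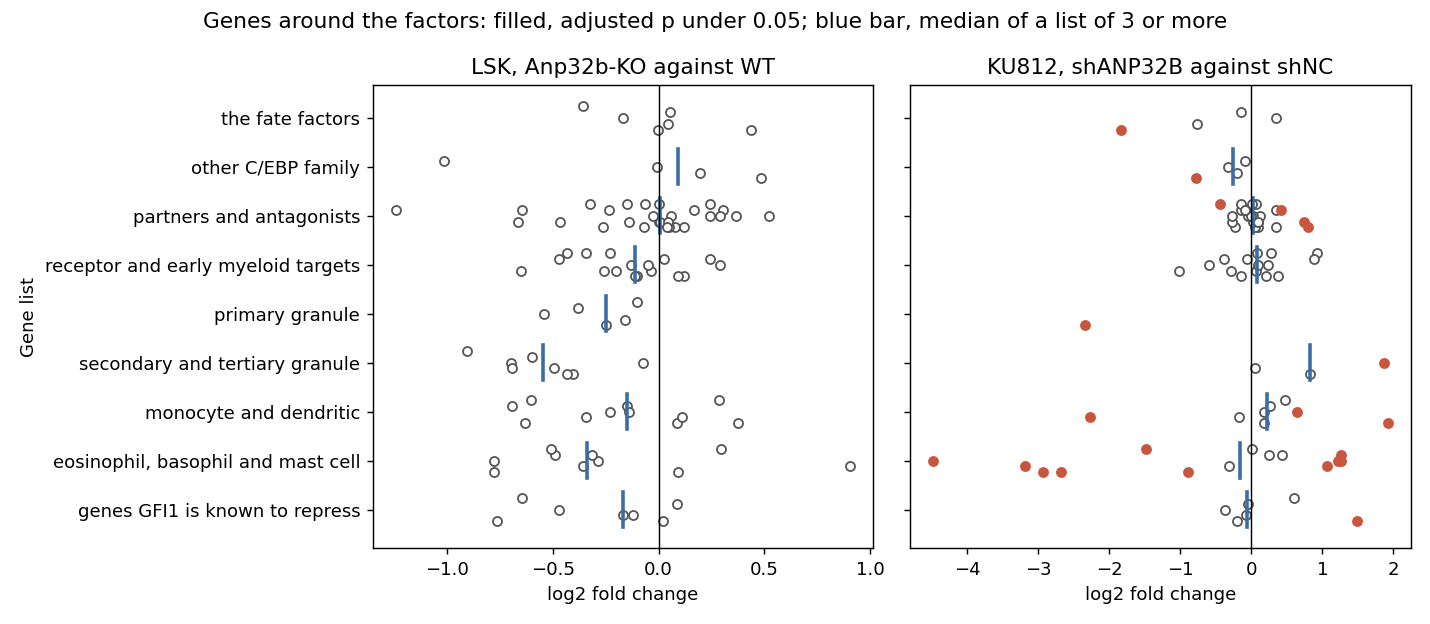
Log2 fold change of every tested gene of each list around the factors, in LSK cells (left) and KU812 cells (right); each circle is a gene, filled where its adjusted p is under 0.05, and the blue bar is the median of a list with 3 or more tested genes. No LSK circle is filled, and the filled KU812 circles lie on both sides of 0 in the eosinophil, basophil and mast cell list (6 lower, 4 higher).

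Monocyte and dendritic cell genes, the branch of IRF8, were split in KU812 cells, where 2 of 8 rose and 1 fell (median 0.22). Over all genes tested there, 7.53% were higher and 9.06% lower past the threshold. The protease inhibitor CST3 rose from 108 and 128 CPM to 179 and 190 CPM (0.65, adjusted p = 0.00244, edgeR), and the chemokine receptor CCR2 from 0.823 and 0.895 CPM to 2.82 and 3.71 CPM (1.92, adjusted p = 0.00868, edgeR). CIITA, the master regulator of MHC class II genes, fell from 4.90 and 2.16 CPM to 0.695 and 0.766 CPM (-2.27, adjusted p = 0.00691, edgeR). The CCR2 call was lost without the second shANP32B library (adjusted p = 0.0756) and the CIITA call without the first shNC library (adjusted p = 0.0716, value -1.56). CTSS, a lysosomal protease, stood at 0.26 and did not pass. In LSK cells 0 of 11 passed (median -0.15), and the smallest p belonged to Ly86, a partner of a Toll-like receptor relative (35.0 and 27.3 CPM in WT, 21.5 and 17.2 CPM in KO, -0.69), Cx3cr1 (-0.60), the clotting factor gene F13a1 (418 CPM in the first WT library against 190 to 213 CPM in the other 3, -0.63, or -0.029 without the first) and Ciita (-0.34).

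C/EBPα and C/EBPε are known to be needed for eosinophil development, and the eosinophil, basophil and mast cell genes of KU812 cells changed in both directions. Of 14 genes tested 6 fell, 4 rose and 4 did not pass, with a median of -0.16. Among all genes tested 9.06% fell and 7.53% rose past the threshold. The 4 that did not pass were mast cell and basophil genes, the stem cell factor receptor KIT (-0.32), HDC (0.0013) and the IgE receptor chains FCER1A (0.24) and MS4A2 (0.43). Eosinophil peroxidase, EPX, was read at 17.8 and 18.5 CPM in shNC and at 0.887 and 0.726 CPM in shANP32B, both knockdown libraries being far below both controls. The eosinophil granule genes EPX (-4.48), PRG2 (-1.48) and RNASE2 (-2.94) fell, as did CLC, the Charcot-Leyden crystal protein (-2.69), with adjusted p from 6.85e-07 to 5.37e-06 (edgeR). The eosinophil ribonuclease RNASE3 and the IL-5 receptor gene IL5RA were the other 2 that fell. The 4 that rose were the mast cell genes CPA3, TPSAB1 and TPSB2 and the leukotriene C4 synthase gene LTC4S. TPSAB1 and TPSB2 are near-identical copies whose reads are uncertain. CPA3 rose from 530.1 and 532 CPM to 1064 and 1151 CPM (1.06, adjusted p = 9.80e-06, edgeR). IL5RA fell by 0.90 on the log2 scale (adjusted p = 0.0142, edgeR), a call lost without the second shANP32B library (0.140). RNASE3, a close copy of RNASE2, had 53 and 61 counts in shNC and 12 and 0 in shANP32B (adjusted p = 0.0178, edgeR), and it did not pass with DESeq2 (adjusted p = 0.316). In LSK cells 0 of 10 passed (median -0.34), with Hdc, the histamine-forming enzyme, at -0.49, the IgE receptor chain Ms4a2 at -0.78 and the mast cell protease Cpa3 at -0.77. Ltc4s, the leukotriene C4 synthase, was higher in both KO libraries, at 2.29 and 4.20 CPM in WT and 6.10 and 5.94 CPM in KO (0.91, or 0.52 without the first WT library).

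Among genes that GFI1 is known to repress, a list of 7 symbols that includes CEBPE, the values of 3 in KU812 cells were as follows. MEIS1, a homeobox factor of stem cells, stood at 0.60, the cell cycle inhibitor CDKN1A at -0.21 and CSF1, the gene of M-CSF, at -0.071, and these 3 did not pass. In LSK cells 0 of 7 passed (median -0.17), with Id2 at -0.64, Csf1 at -0.47 and Cdkn1a at -0.76, the last read at 247 CPM in the first WT library and at 86.3 to 114 CPM in the other 3. Without that library Cdkn1a stood at 0.12.

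Other cell types in the sample were read through marker lists. Beside the counts for KU812 cells, 7.53% of all genes tested there were higher and 9.06% lower past the threshold. In KU812 cells the summed level of the 5 erythroid markers was 647 and 722 CPM in shNC and 482 and 470 CPM in shANP32B, with 4 of the 5 genes lower past the threshold (ALAS2 not without the first shANP32B library, adjusted p = 0.0674, edgeR). The 6 mature neutrophil markers summed to 5.76 and 7.97 CPM in shNC and 16.7 and 14.2 CPM in shANP32B, with S100A8 and S100A9 past the threshold. Most of that rise was S100A8 (0.930 and 1.38 CPM in shNC, 7.10 and 6.33 CPM in shANP32B) and S100A9 (0.644 and 0.773 CPM, 4.01 and 3.03 CPM). LTF (0.053), CXCR2 (0.45) and FPR1 (-0.12) did not pass, and CAMP was too low to be tested. The 8 stem cell markers summed to 414 and 396 CPM in shNC and 303 and 375 CPM in shANP32B, and 2 of them rose past the threshold. Most of each sum was KIT, at 395 and 378 CPM in shNC and 275 and 344 CPM in shANP32B. By log2 fold change 5 of the 8 were higher and 3 lower, with a median of 0.67. MECOM, a stem cell transcription factor, rose from 11.9 and 12.1 CPM to 19.9 and 21.3 CPM (0.78, adjusted p = 0.00887, edgeR), and HLF, another, from 2 and 0 counts to 19 and 26 counts (adjusted p = 0.0108, edgeR). Both calls were lost without the second shANP32B library (adjusted p = 0.0860 and 0.0935). Of the T and NK cell markers, 4 listed genes summing to 11.6 and 12.04 CPM in shNC and 6.14 and 7.06 CPM in shANP32B, 1 fell. It was NKG7, a granule protein of NK cells (1.07 and 2.03 CPM in shNC, 0.154 and 0.242 CPM in shANP32B, adjusted p = 0.0108, edgeR), a call lost without the second shNC library (adjusted p = 0.107). In LSK cells the 5 stromal markers summed to 88.3 and 93.0 CPM in WT and 60.5 and 58.6 CPM in KO, and the 9 stem cell markers to 1087 and 1161 CPM in WT and 1263 and 1190 CPM in KO, with 0 genes past the threshold in either list. The part of these shifts in the values of the factors was not tested.

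**Figure D4:**
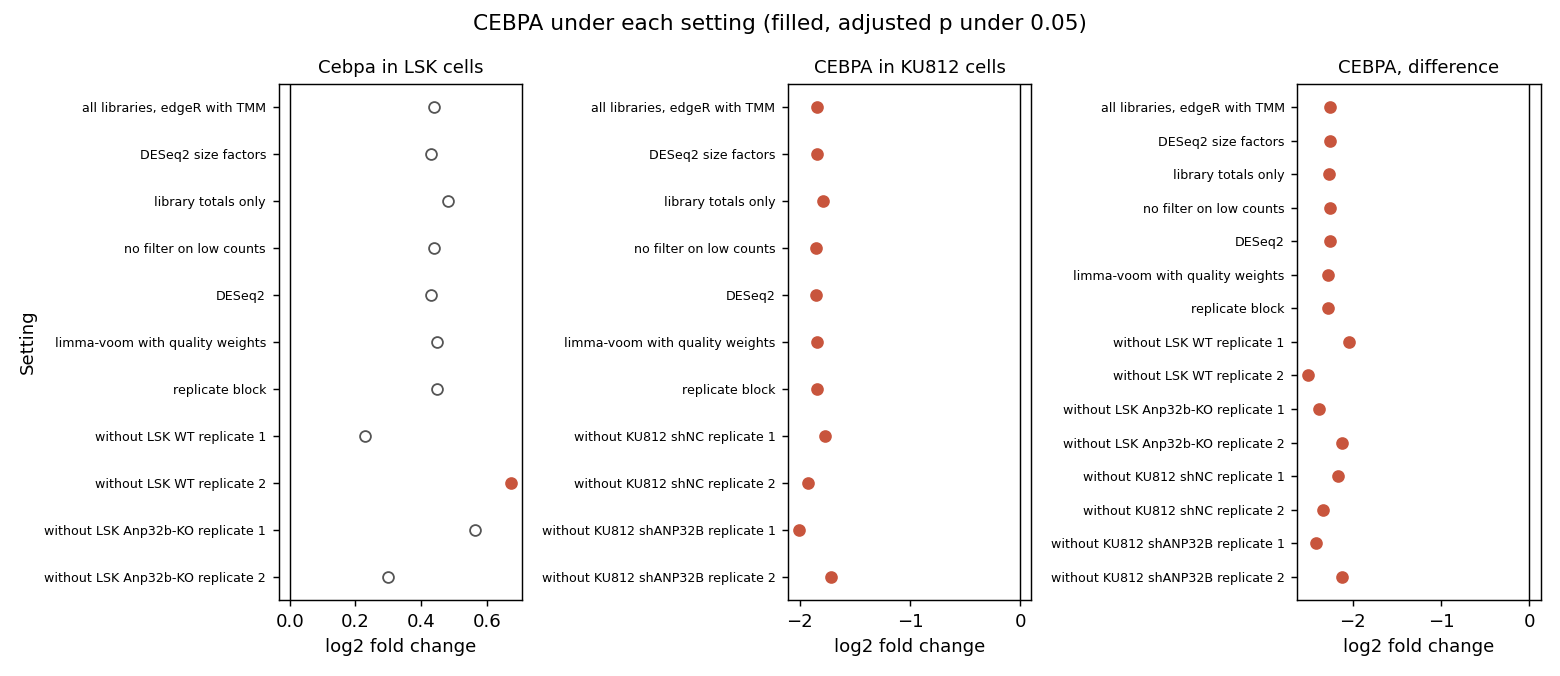
Log2 fold change of Cebpa in LSK libraries, of CEBPA in KU812 libraries, and of CEBPA as the KU812 change minus the LSK change, under each setting (rows); circles are filled where the adjusted p is under 0.05. The KU812 value stays between -2.01 and -1.71 and the difference between -2.50 and -2.05, all filled, while the LSK value runs from 0.23 to 0.67 and is filled only without the second WT library.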

How the data were processed

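RNA-seq was run on total RNA of 4 LSK and 4 KU812 libraries, 2 per group. The authors deposited raw read counts per gene symbol, 1 table per library, listing only genes with 10 or more counts over the 4 libraries of an experiment. Per the submitters' processing notes the tools included HISAT2, TopHat, Cufflinks and DESeq and the builds GRCm38 and GRCh38, with no role for each, and the strand setting was not stated in the sources used here. Each experiment was tested apart with edgeR 4.0.16 (TMM, filterByExpr, quasi-likelihood F-test, Benjamini-Hochberg adjustment over all genes tested, threshold 0.05), which kept 14598 and 16529 genes. The difference between experiments came from 1 edgeR model over 8 libraries on symbols joined in capitals. The SE is the fitted log2 fold change divided by the square root of F, and confidence intervals are not adjusted. A floor of 3 counts is 0.197 to 0.286 CPM in LSK and 0.107 to 0.122 CPM in KU812 libraries, for counting error only. Exon lengths and gene positions are from GENCODE vM21 (GRCm38), promoters from RefSeq. The code was tested on simulated data.

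Members and gene lists were chosen with earlier results of these data known. All 6 factors are named, plus, in each list, up to 4 genes with the smallest p and any gene singled out after its values were seen (RUNX1, GATA1, GATA2, AZU1, CTSG, RNASE3, IL5RA, CPA3, TPSAB1, TPSB2, LTC4S, KIT, HDC, FCER1A, MS4A2). Some genes that this rule takes are left unreported. Alternatives were DESeq2 1.42.0 size factors, library totals, no filter, DESeq2, limma-voom (limma 3.58.1), a replicate block and leaving out each library.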

Additional observations from a re-analysis of the deposited data

Results flagged for a closer look

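CEBPA is listed because its change differed between the experiments by a test of the difference itself. That it leaned in opposite directions was known when it was chosen, so the test is not independent of that choice. The KU812 change minus the LSK change was -2.26 on the log2 scale (SE 0.26, adjusted p = 0.00208, edgeR), from 0.44 in LSK cells and -1.84 in KU812 cells. CEBPB is listed for the same reason, with a difference of -1.25 (SE 0.28, adjusted p = 0.0461, edgeR), from 0.48 and -0.78. In 7 of the 14 alternatives, each leaving out 1 library, the CEBPB difference did not pass, with adjusted p from 0.0569 to 0.207. With 2 libraries a group, no group was large enough to test for a library far from the others.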

How the results depend on the processing

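CEBPA in KU812 cells (-2.01 to -1.71) and its difference between experiments (-2.50 to -2.05) passed under every alternative run. All alternatives reuse the same libraries, and the opposite directions of CEBPA were known when it was chosen. They show how far the values depend on the processing and are not independent support for the difference. The number of genes past the threshold in LSK cells was 0, against 15 with DESeq2, 2 with limma-voom and 0 to 830 leaving out 1 library (36 without the first and 830 without the second WT library). Of the 6 factors 0 to 2 then passed in LSK cells, the 2 being Cebpa and Irf8 without the second WT library. In KU812 cells 2741 genes passed (1244 higher, 1497 lower), against 1413 to 4047 leaving out 1 library, and scaling by library totals only gave 1474 higher and 1182 lower. The difference between experiments had 239 genes past the threshold, against 577 with DESeq2 and 38 to 719 leaving out 1 library.

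With the replicate block, 15 genes passed in LSK cells, 4164 in KU812 cells and 285 in the difference. Same-numbered libraries share only a number: their deviations from the group means correlated at -0.069 in LSK and 0.12 in KU812 cells, over 1 pair each. No factor's call changed under the block.

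Directions turned for Spi1 in LSK cells (0.045 with library totals only, 0.026 without the first WT and 0.12 without the first KO library), Cebpd (-0.26 without the first WT, -0.053 without the second KO library), Gfi1 (-0.15 and -0.19, the same libraries) and Cebpe (0.17 without the first KO library), and among other genes for Cdkn1a (0.12 without the first WT library), Ms4a3 (0.058, the same) and Elane (0.024, and 0.16 without the first KO library). Leaving out 1 library, the values ran from -0.13 to 0.12 for Spi1, -0.26 to 0.42 for Cebpd, -0.19 to 0.27 for Gfi1, -0.63 to 0.17 for Cebpe, -1.31 to 0.12 for Cdkn1a, -0.72 to 0.058 for Ms4a3 and -0.57 to 0.16 for Elane. The cause was not tested.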

Other observations

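The genes next to the factors in the mouse genome were read for comparison where they were listed. Of those tested 0 passed the threshold, as for all 14598 genes tested in LSK cells. Cebpg, the C/EBP family gene 62720 bases from Cebpa, had a log2 fold change of 0.20 in LSK cells against 0.44 for Cebpa. Cox4i1, 62151 bases from Irf8, stood at 0.044 against -0.36 for Irf8. Spidr, which overlaps Cebpd on the opposite strand, was read at 48.6 and 40.6 CPM in WT and 39.7 and 42.1 CPM in KO (-0.13).

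Over the 8 libraries, centred within each experiment, the genes whose levels followed CEBPA most closely among 8587 ranked were NMNAT3 (Pearson r 0.992), SALL2 (0.990) and ELAVL1 (0.989). For SPI1 they were HAX1 (0.981), NANS (0.974) and SRRD (0.966), for CEBPD NCAPG (0.989), FANCC (0.988) and RPA3 (0.972), and for GFI1 LDOC1L (0.974), SLC35E3 (0.950) and GMPPB (0.936). The libraries share their groups and depth, so these values are a description.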
